A study of Mus musculus with 4 samples.

Results

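The mouse T cell receptor alpha and delta genes share a single locus on chromosome 14, in which the delta genes lie inside the alpha genes. Its members were taken from the GENCODE mouse release 21 annotation of build GRCm38 (mm10) as every gene on chromosome 14 with a Tra or Trd symbol followed by v, d, j or c and a T cell receptor gene type. This gave 200 of 55450 annotated genes: 134 variable (V) segments, 2 diversity (D) segments, 62 joining (J) segments and 2 constant (C) genes, of which 21 V and 9 J segments are annotated as pseudogenes. The region examined runs from the first to the last member with 50 kb added on each side, chr14:52377928-54274206 (GRCm38). DNase-seq, which maps accessible chromatin by sequencing the ends that the nuclease DNase I leaves, was measured in naive resting CD8 alpha-beta T cells. All 4 libraries came from virgin female B6CASTF1/J mice aged 2 months, a cross between a laboratory strain and a wild-derived strain, and carry biological replicate numbers 1 to 4 of a single group. The labels give 4 biosamples under a shared donor identifier, so the spread between libraries may be partly technical. With no second group, the comparisons were between classes of segments and stretches of the locus within each library.

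An alpha chain is made in a developing thymocyte by joining a Trav segment to a Traj segment, and a delta chain by joining Trdv, Trdd and Trdj segments. The RAG recombinase cuts at recombination signals, which lie 3′ of each V segment and 5′ of each J segment. Transcription from a promoter 5′ of the first Traj segment (the T early alpha promoter), from V promoters and under the alpha enhancer 3′ of Trac opens the locus to the recombinase, and the factor CTCF, which binds DNA at loop anchors, shapes the contacts between distant V segments and the enhancer. Joining deletes the DNA between the chosen V and J segments, so mature alpha-beta T cells carry fewer copies of the delta genes and of inner V and J segments than of the flanks. The copy number of each stretch in these cells was not measured, and its part in the values below was not tested.

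Replicates 1 to 4 had 69365, 70533, 51101 and 20636 peaks on the autosomes and chromosome X in their longer list, and depths of 109, 62.9, 91.5 and 24.3 M tags as read from the smallest step between peak heights. Merging gave 86884 sites, of which 41216 were called in at least 3 libraries (consensus sites) and 17540 in all 4. Marker genes were looked up at their promoters, where 58.8%, 58.9%, 57.2% and 46.5% of 21728 coding genes had a peak in replicates 1 to 4, so that a few called markers of a cell type do not show that it was present. The promoter of Cd8a, the CD8 alpha chain, stood at a height of 0.498 in replicate 1 and 0.366 in replicate 2, on the relative scale explained below, and was not called in replicates 3 and 4. Cd8b1, the beta chain, was called in all 4. Zbtb7b, a factor of helper T cells, stood at 0.251, 0.358, 0.746 and 1.12 in replicates 1 to 4, and Cd4 had no promoter peak in any. The T cell list (Cd3d, Cd3e, Cd3g, Lck, Cd2, Cd5) had 6, 6, 5 and 3 of 6 promoters called and summed relative heights of 5.26, 4.73, 4.15 and 2.67. The B cell genes Cd79a, Cd79b, Pax5 and Ms4a1 had 3, 2, 4 and 2 of 4 called, with sums of 0.807, 0.693, 1.99 and 2.35. The myeloid list (Lyz2, Csf1r, Itgam) had 2, 2, 2 and 0 of 3, with sums between 0 and 0.4, and the NK list 0 of 2 throughout. Of the gamma-delta list, Sox13 was called in all 4 libraries, and Trdc and Trgc1 had no promoter peak in any. The part of other cells, of depth and of the labels in the results below was not tested, and the tested differences are given by library and for replicates 1 and 2 alone.

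The highest site of the locus lay 3215 bp 3′ of Trac, the alpha constant gene, on the side where the mouse alpha enhancer is known to lie, in no annotated gene (chr14:54227421-54227800). A relative height is the deposited peak height divided by the library's own median over the 17540 sites that all 4 libraries share, so 1 is a typical shared site. The site's relative height was 3.83, 5.05, 2.88 and 1.79 in replicates 1 to 4 (mean 3.39 ± 1.39, SD, n = 4; 4.44 in replicates 1 and 2 alone). The deposited heights were 15.9, 42.1, 9.15 and 4.19. In such bulk libraries, a site open in fewer cells and a site less open in each cell cannot be told apart. The site stood above 99.6%, 99.9%, 97.5% and 79.3% of all peaks of these libraries. Its sequence is shown because footprints inside it cover some of its matches to motifs of factors known to act at the alpha enhancer. Footprints mark bases protected from the nuclease. The first 300 bases of the site, plus strand, with capitals for bases inside a footprint in at least 2 libraries, read as follows.

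Site 3′ of Trac: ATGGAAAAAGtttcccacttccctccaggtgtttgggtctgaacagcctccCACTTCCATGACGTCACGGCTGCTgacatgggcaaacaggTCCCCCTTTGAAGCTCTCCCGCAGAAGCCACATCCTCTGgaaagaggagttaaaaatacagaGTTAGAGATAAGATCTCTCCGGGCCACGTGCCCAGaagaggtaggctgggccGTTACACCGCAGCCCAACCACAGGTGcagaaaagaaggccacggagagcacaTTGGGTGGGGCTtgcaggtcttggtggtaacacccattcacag

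The site held 11, 6, 6 and 2 footprints in replicates 1 to 4. A cAMP response element (CRE, TGACGTCA), the site of CREB and ATF factors, matched at bases 60 to 67 of the printed run, and a footprint of 23, 27, 23 and 15 bases covered it in replicates 1 to 4. Of the matches named here, it alone lay in a footprint in every library. A TCF/LEF match (CTTTGA) lay at bases 97 to 102, RUNX matches (TGNGGT) at bases 211 to 216 and 222 to 227, a GATA match (AGATAA) at bases 159 to 164 and an E-box (CANCTG), the site of E proteins, at bases 226 to 231, each wholly inside shared footprints. The last RUNX match and this E-box overlap. An ETS match (CNGGAA) at bases 128 to 133 lay in shared footprints for 3 of its 6 bases. The other E-box, at bases 26 to 31, lay in none. MYB matches (AACNG) at bases 42 to 46 and 86 to 90 also lay in no shared footprint. A further MYB match, at bases 204 to 208, lay in shared footprints for 3 of its 5 bases. All motifs were searched on both strands. Over the 41216 consensus sites, the central 200 bp held the CRE in 1.35%, the GATA match in 5.37%, the TCF/LEF match in 11.7%, the RUNX match in 40.2%, the E-box in 43.2% and the ETS match in 51.2%. The MYB match was held there in 69.8%. In the printed site the CRE lies outside that central window. A match is a description of the letters and not a test of binding.

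The stretch from the start of Trac to 50 kb past its end (chr14:54220521-54274206, the Trac stretch) held 7 of the 42 consensus sites of the region and 6 of its 10 highest. Beside the highest site, a site 3755 bp 3′ of Trac reached 1.46, 1.85 and 1.32 in replicates 1, 2 and 3, and further sites at 6975 and 9035 bp had 0.751, 1.10 and 0.842 and 1.12, 1.2 and 1.12. None of these 3 was called in replicate 4. A site in an intron of Dad1, which encodes a subunit of the enzyme complex that glycosylates new proteins, lay 14935 bp 3′ of Trac and had 2.07, 2.25, 1.76 and 1.30 in replicates 1 to 4 (mean 1.84 ± 0.417, SD, n = 4). The shared promoter of Dad1 and Abhd4, a lipid hydrolase gene, had 2.87, 2.14, 2.87 and 2.37 (mean 2.56 ± 0.368, SD, n = 4). A site at another start of Abhd4 had 0.487, 0.554, 0.375 and 0.526. The site in the Dad1 intron is shown (chr14:54239141-54239340, plus strand, capitals as above) because a footprint lay over its CTCF-type match (CC, any 3 bases, AG, any 2 bases, GGC) in all 4 libraries.

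Site in Dad1: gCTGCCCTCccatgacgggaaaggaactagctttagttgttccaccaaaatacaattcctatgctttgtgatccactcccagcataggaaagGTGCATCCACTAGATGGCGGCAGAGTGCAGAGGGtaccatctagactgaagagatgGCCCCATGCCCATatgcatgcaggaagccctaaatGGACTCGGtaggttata

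The match, CCACTAGATGGC, began at base 99 and the footprints over it were 33, 34, 34 and 17 bases wide in replicates 1 to 4. Over all consensus sites, 25.3% held this pattern in the central 200 bp. Of the Trac stretch's 7 consensus sites, 1 held it.

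**Figure D1:**
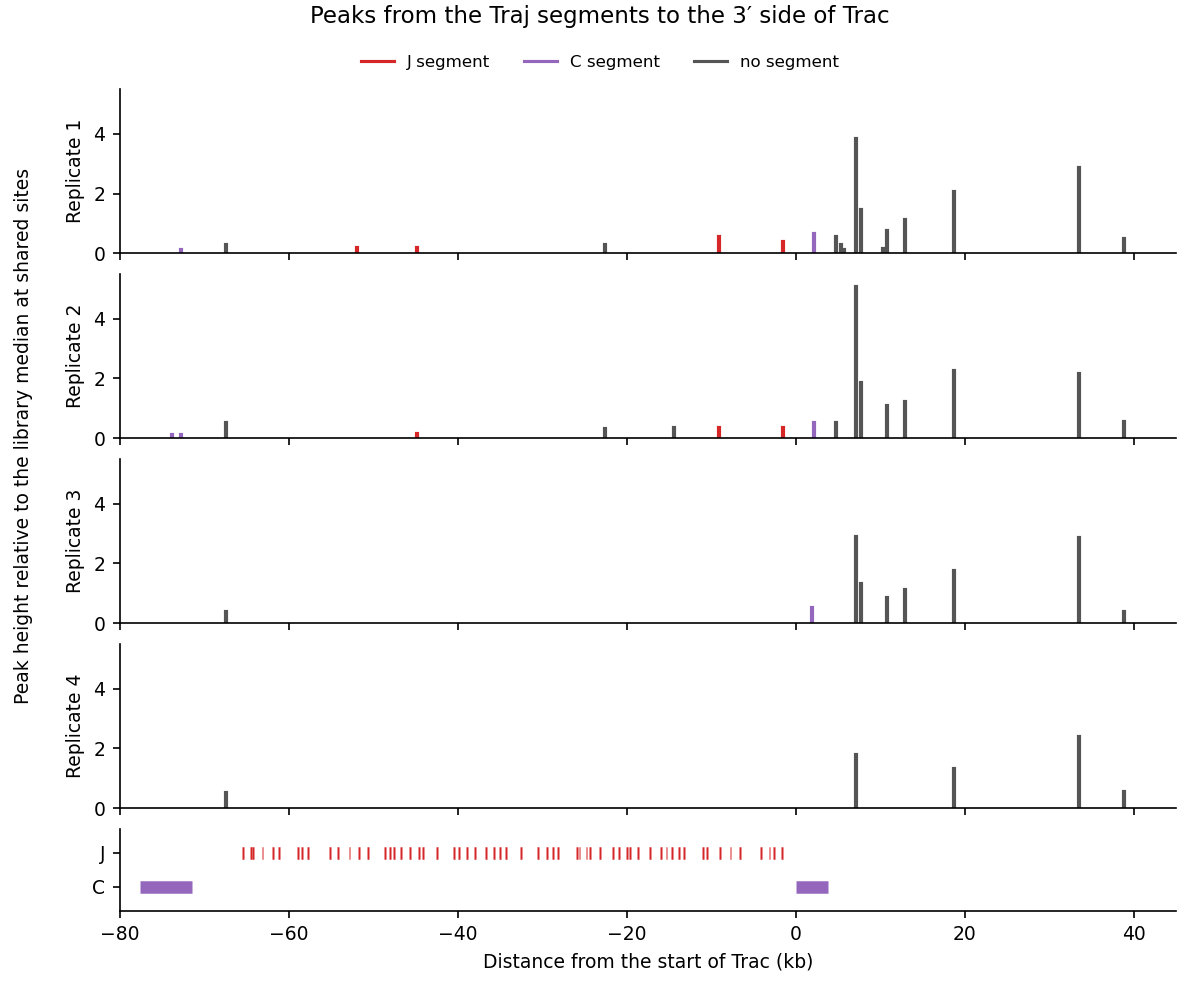
Peak height relative to the library median at shared sites (y axis) against distance from the start of Trac in kb (x axis), 1 panel per library; bars are peaks, red within 200 bp of a J segment, purple at a C gene and grey elsewhere, and the bottom panel shows the J and C segments. The highest bar in replicates 1, 2 and 3 stands just 3′ of Trac (3.83, 5.05 and 2.88), while in replicate 4 the Dad1 and Abhd4 promoter (2.37) exceeds it (1.79).

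The gene body of Trac itself (chr14:54220521-54224206) had an intronic peak of relative height 0.633 in replicate 1, 0.503 in replicate 2 and 0.509 in replicate 3, and no peak in replicate 4. The peak of replicate 3 ended where those of replicates 1 and 2 began, at chr14:54222521-54222760, and by the rule of at least 1 shared base it was not merged with them. Trac therefore had no consensus site. Trdc, the delta constant gene (chr14:54142851-54148868), had exonic peaks in replicates 1 and 2, the highest at 0.111 and 0.107, and none in replicates 3 and 4. Trdd1 and Trdd2, the diversity segments, had no peak in any library. The delta stretch, from the last V segment before Trdd1 to the end of Trdv5, held 0 consensus sites. Its highest peak lay 2068 bp 5′ of Trdd1 and was called in replicates 1 and 2 at 0.116 and 0.170. No peak was called between Trdj2 and Trdc, the interval where the delta enhancer is known to lie.

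Few J segments had a peak. A segment was counted where its span with 200 bp added on each side overlapped a peak by at least 1 bp, and J segments had a peak at 4, 3, 0 and 0 of 62 in replicates 1 to 4 (6.45%, 4.84%, 0% and 0%), with a consensus site at 0 of 62. Genome tiles of 461 bp, the median J window, had a peak in 1.62%, 1.59%, 1.22% and 0.476% in the same libraries, and a consensus site in 1.15%. The J share was thus above that of the tiles in replicates 1 and 2. In replicates 3 and 4 it was 0%, but at tile shares of 1.22% and 0.476%, 62 segments are too few to show a share below background. Traj7 had 0.531 and 0.354 in replicates 1 and 2, with the peak over the segment itself. Traj1, the last Traj and a pseudogene, had 0.373 and 0.335 from a peak 60 bp 3′ of it. Traj42 had 0.193 and 0.152 from a peak 38 bp 5′ of it, and Traj49 had 0.169 in replicate 1 alone. None of these 4 segments had a peak in replicates 3 and 4. Where called, the median relative height was 0.283 at J segments (n = 4) and 0.148 at V segments (n = 38) in replicate 1, and 0.335 (n = 3) and 0.105 (n = 44) in replicate 2. Traj61, the first Traj and a pseudogene, and both Trdj segments had no peak in any library.

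The single consensus site among the Traj segments lay 1885 bp 5′ of Traj61, at the side of the known T early alpha promoter (chr14:54152941-54153120, in no annotated gene). It was called in all 4 libraries, at 0.293, 0.493, 0.357 and 0.491 in replicates 1 to 4 (mean 0.409 ± 0.0999, SD, n = 4). A footprint of 30 bases was called in replicates 1, 2 and 3 over nearly the same bases, and the sequence is shown, plus strand, because that footprint covers a match to a shorter CTCF pattern (CA, any 2 bases, AG, any 2 bases, GGC).

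Site 5′ of Traj61: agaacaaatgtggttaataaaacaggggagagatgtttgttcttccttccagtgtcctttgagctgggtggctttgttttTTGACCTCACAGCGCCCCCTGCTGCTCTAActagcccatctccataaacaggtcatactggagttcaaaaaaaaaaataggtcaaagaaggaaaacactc

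The match, GCCCCCTGCTG on the printed strand, lay at bases 94 to 104, and a RUNX match at bases 84 to 89 lay in the same footprint. Other matches lay wholly outside shared footprints. These were RUNX at bases 9 to 14, TCF/LEF at 57 to 62 and 162 to 167, and ETS at 47 to 52. MYB matches at bases 21 to 25 and 127 to 131 lay outside as well. The longer CTCF pattern has no match in these letters, and 23.3% of all consensus sites held the shorter pattern in the central 200 bp. The shorter pattern was added after the data were seen. The Traj stretch held 5 sites common to replicates 1 and 2. Replicate 3 called 1 of them and replicate 4 also 1, this site in both cases. Among all 17983 sites of the genome in the same range of height in replicates 1 and 2, 81.3% were called in replicate 3 and 15.3% in replicate 4. For the V stretch the counts were 33 and 5 of 55 sites, beside 72.0% and 19.0% of the 41817 sites in its range. For the Trac stretch they were 7 and 4 of 9, beside 99.1% and 78.3% of 17379. The sites counted as missed by replicate 3 there include the Trac intron site, which the peak of replicate 3 abutted without a shared base. Each range was set by the lowest and highest site of its stretch alone. Heights inside the range were not matched, so the counts and the genome shares are not like for like.

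The V segments were called more often than the J segments in each library. A peak lay at 38, 44, 21 and 1 of 134 V segments in replicates 1 to 4 (28.4%, 32.8%, 15.7% and 0.746%), against 2.53%, 2.52%, 1.9% and 0.763% of genome tiles of 930 bp, the median V window. A consensus site lay at 21 V segments (15.7%), against 1.76% of such tiles, and 32 were called in both replicates 1 and 2. A consensus site was counted where the merged site met the window. At Trav9n-1, a pseudogene, the site was called in replicates 1, 2 and 3, but the peak of replicate 2 alone reached the window. The share of J segments with a peak minus that of V segments was -21.9, -28, -15.7 and -0.746 percentage points in replicates 1 to 4. The mean difference was -16.6 ± 11.7 points (SD, n = 4; lower in J in 4 of 4 libraries; exact two-sided sign-flip permutation p = 0.13, the smallest that 4 libraries can give). In replicates 1 and 2 alone it was -25.0 points. In replicate 4 the difference rested on 1 segment, Trav17, and the V share was near that of the tiles. The same permutation test gave p = 0.25 with no window extension, with at least 50 bp of a peak needed in the window, and with the shorter peak lists. V windows were longer than J windows, so 300 bases 5′ of each segment were also compared. These lay under a peak at 3, 2, 0 and 0 of 62 J segments and at 37, 40, 20 and 1 of 134 V segments, where 1.24%, 1.2%, 0.938% and 0.362% of genome tiles of 300 bp did.

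V segment peaks sat over the promoter side of the segments. Of the 47, 50, 23 and 1 peaks within 1 kb of a V segment in replicates 1 to 4, each counted once at the nearest segment, 74.5%, 76%, 78.3% and 100% had their middle in the 300 bp 5′ of the segment start. The median offset of the peaks on that side was -111, -110.5, -143 and -232.5 bp. The 28 bases 5′ of a J segment, which hold its recombination signal, met a peak at 2, 1, 0 and 0 of 62 segments in replicates 1 to 4, where 0.61%, 0.554%, 0.48% and 0.177% of genome tiles of that length did. The 39 bases 3′ of a V segment, which hold the signal there, met a peak at 6, 7, 1 and 0 of 134, and 0.644%, 0.589%, 0.505% and 0.187% of tiles of 39 bp did.

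**Figure D2:**
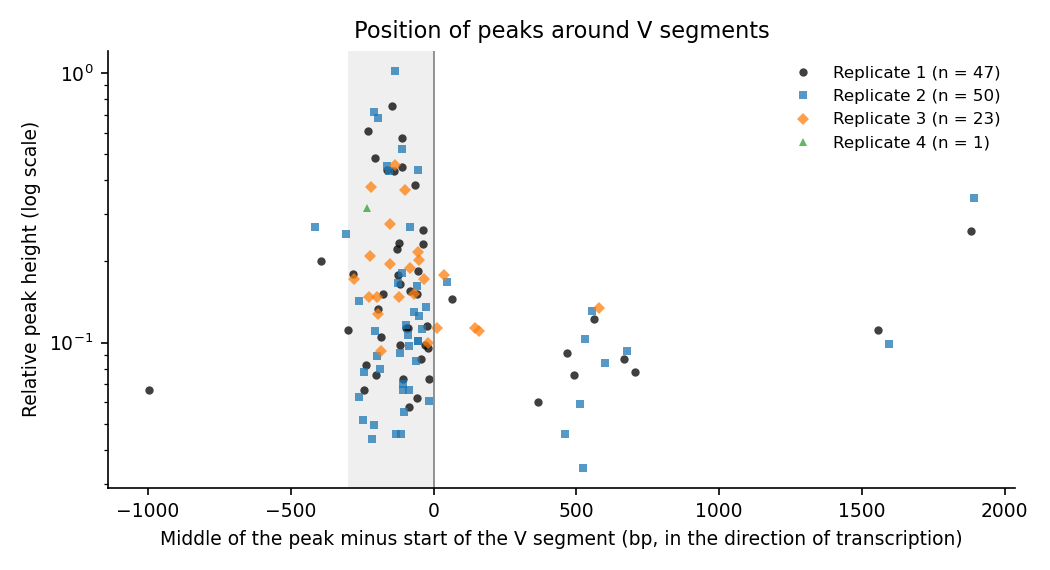
Relative peak height on a log scale (y axis) against the distance in bp from the V segment start to the middle of the peak, negative on the 5′ side (x axis), for every peak within 1 kb of a V segment in each library, drawn once at the nearest segment; the shaded band marks 300 bp 5′ of the start. Of the points, 74.5%, 76%, 78.3% and 100% lie in the band in replicates 1 to 4, and the highest, at 1.02 in replicate 2, is among them.

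The 21 V segments with a consensus site came from 13 families: Trav1, Trav3-3, Trav3-4, Trav5-1, Trav6n-6, Trav8d-2, Trav9n-1, Trav9-1, Trav9-2, Trav9-4, Trav10d, Trav10n, Trav10, Trav11n, Trav12-1, Trav12-2, Trav13d-4, Trav15d-2-dv6d-2, Trav15-1-dv6-1, Trav17 and Trdv2-2. The mean relative heights of these sites ran between 0.0530 (Trav9-4) and 0.558 (Trav10d). Trav17 was the sole V segment called in all 4 libraries, at 0.607, 0.716, 0.378 and 0.316 in replicates 1 to 4. Trav10d had 0.756, 1.02 and 0.457 in replicates 1, 2 and 3, Trav6n-6 had 0.576, 0.522 and 0.368, and Trav11n had 0.438, 0.451 and 0.275, and these 3 had no peak in replicate 4. Trav1, the V segment farthest 5′, had 0.262, 0.135 and 0.203 in replicates 1, 2 and 3. Trdv4 and Trdv5, the V segments on either side of the D segments, had no peak in any library. By gene type, 19 of 113 functional V segments and 2 of 21 V pseudogenes had a consensus site. Of the 6 Trdv segments 1 had one, and of the 10 Trav segments that also serve the delta chain, 2.

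The sequence of the Trav17 site (chr14:53806321-53806500, plus strand, capitals as above) is shown as the V promoter side called in every library.

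Trav17 site: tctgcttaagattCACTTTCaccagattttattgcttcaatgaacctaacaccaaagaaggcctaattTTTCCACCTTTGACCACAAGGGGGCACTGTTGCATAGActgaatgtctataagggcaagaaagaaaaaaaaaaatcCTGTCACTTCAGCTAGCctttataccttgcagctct

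A footprint of 36, 40 and 31 bases in replicates 1, 2 and 3 covered a CTCF-type match at bases 82 to 93, CCACAAGGGGGC, with a TCF/LEF match at bases 76 to 81 and a RUNX match at bases 81 to 86 beside it. The last base of the TCF/LEF match is the first of the RUNX match, and the RUNX and CTCF-type matches overlap. No footprint was called at this site in replicate 4.

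The Trav10 family has 3 copies, in the d, n and unlettered parts of the V array, and was the family of more than 1 member in which every member had a consensus site. Trav10d, Trav10n and Trav10 had 0.756, 0.482 and 0.431 in replicate 1, 1.02, 0.678 and 0.434 in replicate 2, and 0.457, 0.210 and 0.196 in replicate 3. The order was the same in these 3 libraries. Their sequences are printed side by side because the match and its footprint recur in each (chr14:52810701-52810880, chr14:53121821-53122000 and chr14:53505481-53505680, plus strand, capitals as above).
Trav10d site: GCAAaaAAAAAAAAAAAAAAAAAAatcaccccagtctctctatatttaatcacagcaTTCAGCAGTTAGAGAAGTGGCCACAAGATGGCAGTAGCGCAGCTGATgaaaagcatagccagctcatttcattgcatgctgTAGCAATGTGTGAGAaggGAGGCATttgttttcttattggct
Trav10n site: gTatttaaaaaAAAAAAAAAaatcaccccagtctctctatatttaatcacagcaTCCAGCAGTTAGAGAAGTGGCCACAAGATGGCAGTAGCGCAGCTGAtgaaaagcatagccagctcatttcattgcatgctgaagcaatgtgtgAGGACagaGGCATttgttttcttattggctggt
Trav10 site: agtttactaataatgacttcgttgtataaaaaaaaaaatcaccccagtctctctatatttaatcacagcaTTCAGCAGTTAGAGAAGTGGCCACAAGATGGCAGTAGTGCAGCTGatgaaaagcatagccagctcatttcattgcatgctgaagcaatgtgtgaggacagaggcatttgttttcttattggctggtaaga
All 3 hold the CTCF-type match CCACAAGATGGC, and an E-box, CAGCTG, follows it. Over the 100 bases around the match, Trav10d differed from Trav10n at 1 base and from Trav10 at 1, and Trav10n differed from Trav10 at 2. A footprint over the match was 45, 47 and 47 bases wide at Trav10d in replicates 1, 2 and 3, 47 and 46 at Trav10n in replicates 1 and 2, and 48, 45 and 10 at Trav10 in replicates 1, 2 and 3. Of the bases of these sites, 34.4%, 23.3% and 31.5% begin a 36-base word found at a single place in the genome, so how tags were assigned among the copies bears on the order, and this was not tested.

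The CTCF-type pattern was common at V segment sites. It was found in the central 200 bp of 15 of 21 V segment consensus sites (71.4%), against 25.3% of all 41216 consensus sites and 2 of 13 other sites of the V stretch. The shorter pattern was found at 11 of 21 (52.4%), against 23.3%. The E-box was found at 19 of 21 (90.5%, against 43.2%) and the GATA match at 5 of 21 (23.8%, against 5.37%), while RUNX and ETS matches were found at 11 and 8 of 21 (52.4% and 38.1%, against 40.2% and 51.2%). TCF/LEF matches were found at 5 of 21 (23.8%, against 11.7%), MYB matches (AACNG) at 15 (71.4%, against 69.8%), the CRE core TGACG at 1 (4.76%, against 16.8%) and the heptamer of recombination signals (CACAGTG) at 2 (9.52%, against 5.41%). The same patterns also stand 5′ of V segments with no peak: in the 300 bases 5′ of the segment the CTCF-type pattern was found at 15 of 21 V segments with a consensus site and at 31 of 84 with no peak in any library, and the E-box at 18 of 21 and 43 of 84. Related V segments share their 5′ sequence, so these counts are not of independent segments. The 15 V segment sites with the CTCF-type pattern had median relative heights of 0.382, 0.269, 0.189 and 0 in replicates 1 to 4, and the 6 without it had 0.148, 0.124, 0.141 and 0. The ranges overlapped in every library. With the 13 other sites of the V stretch added, the medians lay closer in replicates 1, 2 and 3. They were 0.273, 0.269, 0.189 and 0 with the pattern (n = 17) and 0.233, 0.168, 0.182 and 0 without it (n = 17) in replicates 1 to 4.

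**Figure D3:**
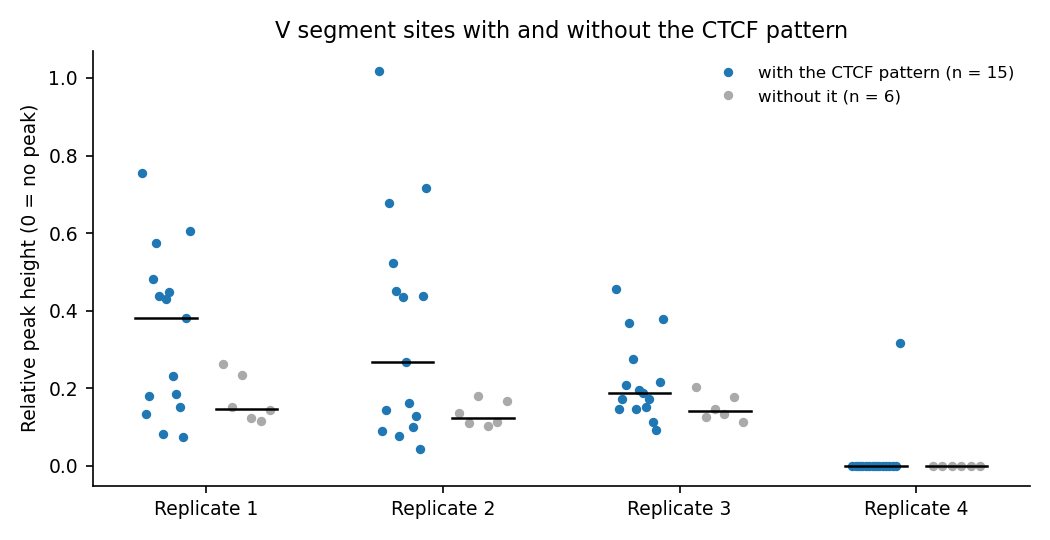
Relative peak height (y axis, 0 where no peak was called) of the 21 V segment consensus sites in each library (x axis), blue with the CTCF-type pattern in the central 200 bp (n = 15) and grey without it (n = 6); lines are medians. The medians with the pattern are 0.382, 0.269 and 0.189 in replicates 1, 2 and 3, against 0.148, 0.124 and 0.141 without it, and the lowest points of both kinds overlap.

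Sites away from any segment made up the other 21 consensus sites of the region, 13 of them in the V stretch. Between Trdv3 and Trdv4, 14805 bp 5′ of Trdv4, a site in no annotated gene was called at 0.273, 0.354, 0.278 and 0.421 in replicates 1 to 4 (mean 0.332 ± 0.0701, SD, n = 4). It is shown because it holds the same CTCF-type core as the Dad1 site, CCACTAGATGGC, at bases 64 to 75, under footprints of 28, 27 and 22 bases in replicates 1, 2 and 3 (chr14:54059901-54060100, plus strand, capitals as above).

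Site between Trdv3 and Trdv4: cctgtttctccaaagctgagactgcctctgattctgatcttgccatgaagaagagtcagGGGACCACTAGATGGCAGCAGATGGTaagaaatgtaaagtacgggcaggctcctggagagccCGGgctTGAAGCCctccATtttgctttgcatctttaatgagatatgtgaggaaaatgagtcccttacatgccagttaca

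The 3 copies of Trav16 each had a site 5′ of the segment, outside the window used for segments, at 1767 bp (Trav16d-dv11), 1728 bp (Trav16n) and 1654 bp (Trav16). In replicates 1, 2 and 3, relative heights were 0.327, 0.453 and 0.155 at the Trav16d-dv11 site, 0.278, 0.333 and 0.206 at the Trav16n site, and 0.298, 0.400 and 0.182 at the Trav16 site. None of the 3 was called in replicate 4. A site in an exon of B230359F08Rik, a T cell receptor gene of the annotation whose symbol falls outside the rule for members, was called at 0.204, 0.143, 0.199 and 0.281 in replicates 1 to 4. The sites 7786 and 8286 bp 3′ of Trav22, in an intron of Gm43647, had relative heights of 0.460, 0.171, 0.701 and 0.860 and of 0.522, 0.133, 0.502 and 1.12 in replicates 1 to 4. Both were lowest in replicate 2 and highest in replicate 4. Of their bases, 28.6% and 8.68% begin a 36-base word unique in the genome. Among the 6 olfactory receptor genes at the 5′ edge of the region, Olfr1509 was open at its promoter at 0.131, 0.0743 and 0.165 in replicates 1, 2 and 3.

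**Figure D4:**
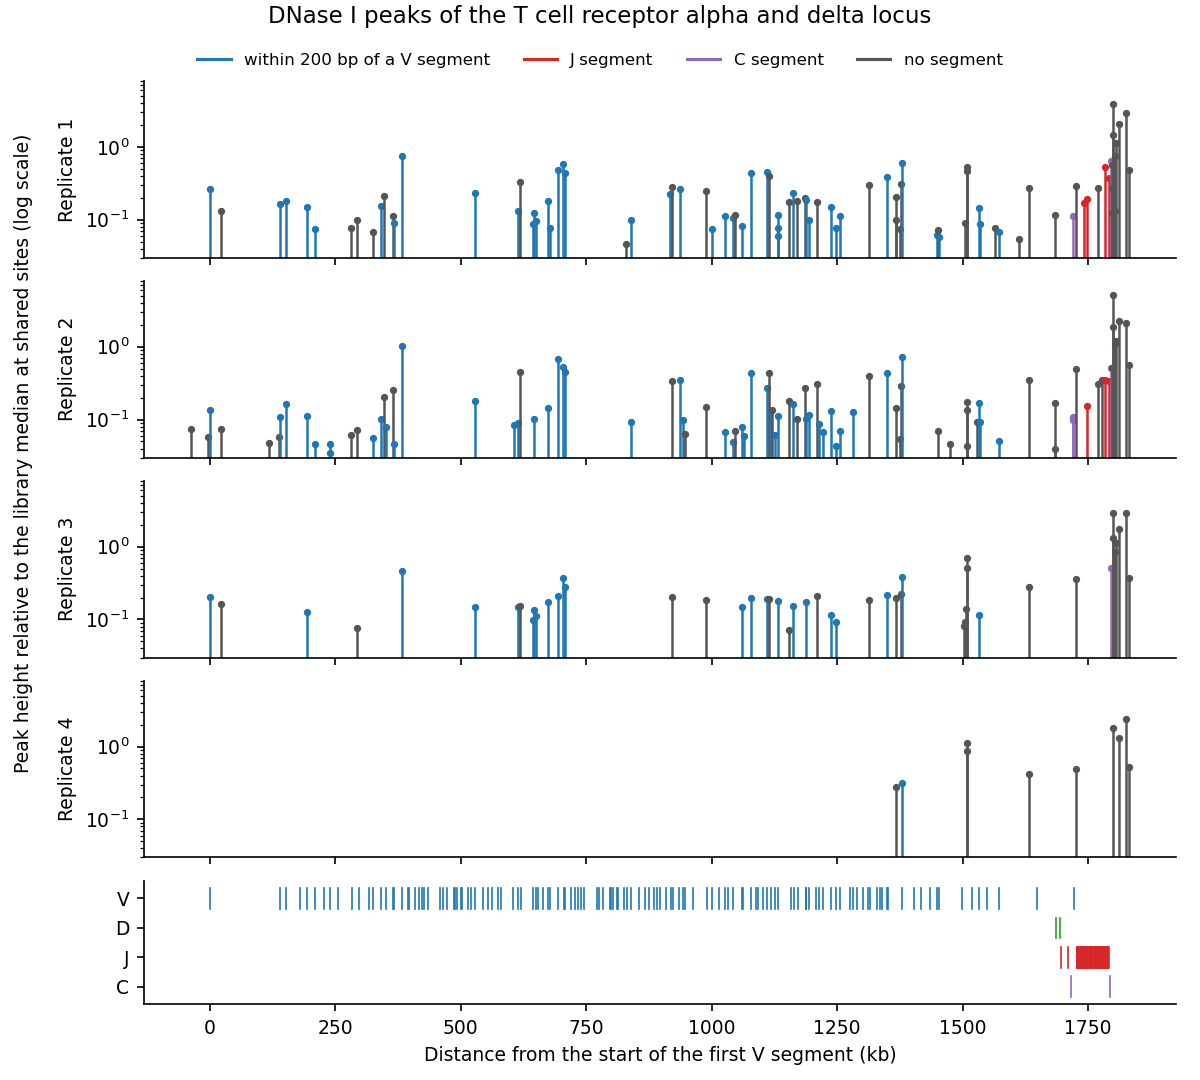
Peak height relative to the library median at shared sites on a log scale (y axis) against distance in kb from the start of the first V segment (x axis), 1 panel per library, with V, D, J and C segments in the bottom panel; blue lines are peaks within 200 bp of a V segment, red of a J segment, purple of a C gene, and grey all others. Peaks at 38, 44, 21 and 1 V segments in replicates 1 to 4 stand mostly below 1, and the highest peaks of each library lie at the Trac end.

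Segment sites were lower in median than the other consensus sites of the region in replicates 1, 2 and 3. The median relative height was 0.231, 0.162, 0.172 and 0 at the 21 segment sites and 0.327, 0.4, 0.278 and 0 at the 21 others in replicates 1 to 4. The mean difference was -0.110 ± 0.0979 (SD, n = 4, lower in 3 libraries and 0 in replicate 4, exact two-sided sign-flip permutation p = 0.25). With a difference of 0 in replicate 4, 0.25 is the smallest p that this permutation test can give here. The test therefore does not decide whether the difference exceeds the spread between libraries. In replicates 1 and 2 alone, where the scale and the sites are those shared by both, the difference was -0.444. All 21 segment sites were V segment sites, and the others took in 7 sites of the Trac stretch. By mean over the 4 libraries, the median was 0.136 at V segment sites and 0.207 at the 13 other sites of the V stretch. It was 1.16 at the 7 sites of the Trac stretch. The part of location in the difference was not tested.

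The share of bases under peaks was greatest in the Trac stretch, with 4.61%, 4.04%, 4.21% and 1.55% in replicates 1 to 4, above each other stretch in every library. The whole region had 0.862%, 0.847%, 0.479% and 0.0977% of its bases under peaks, against 0.416%, 0.369%, 0.325% and 0.114% for the rest of chromosome 14. The difference was 0.265 ± 0.238 points (SD, n = 4; higher in 3 of 4 libraries; exact two-sided sign-flip permutation p = 0.25), and 0.462 points in replicates 1 and 2 alone. The Traj stretch had 1.2%, 1.38%, 0.253% and 0.168% under peaks, against 0.762%, 0.718%, 0.393% and 0.0547% for the V stretch, a difference of 0.270 ± 0.355 points (SD, n = 4; higher in 3 of 4; exact permutation p = 0.375), and 0.554 points in replicates 1 and 2 alone. Deposited cut-rate intervals covered 1.28%, 1.52%, 0.336% and 0.212% of the Traj stretch, against 1.05%, 1.06%, 0.505% and 0.0839% of the V stretch (mean difference 0.165 ± 0.262 points, SD, n = 4; exact permutation p = 0.375; 0.350 in replicates 1 and 2 alone). Footprints per Mb numbered 112, 140.4, 14 and 0 in the Traj stretch, against 68.6, 64.9, 26.7 and 1.82 in the V stretch (mean difference 26.2 ± 40.9, SD, n = 4; exact permutation p = 0.5; 59.6 in replicates 1 and 2 alone). In replicates 1 and 2 the Traj stretch was above the V stretch by all 3 measures, and in replicate 3 it was below by all 3. With 4 libraries the exact permutation test cannot go below p = 0.13, so it does not decide whether these differences exceed the spread between libraries.

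**Figure D5:**
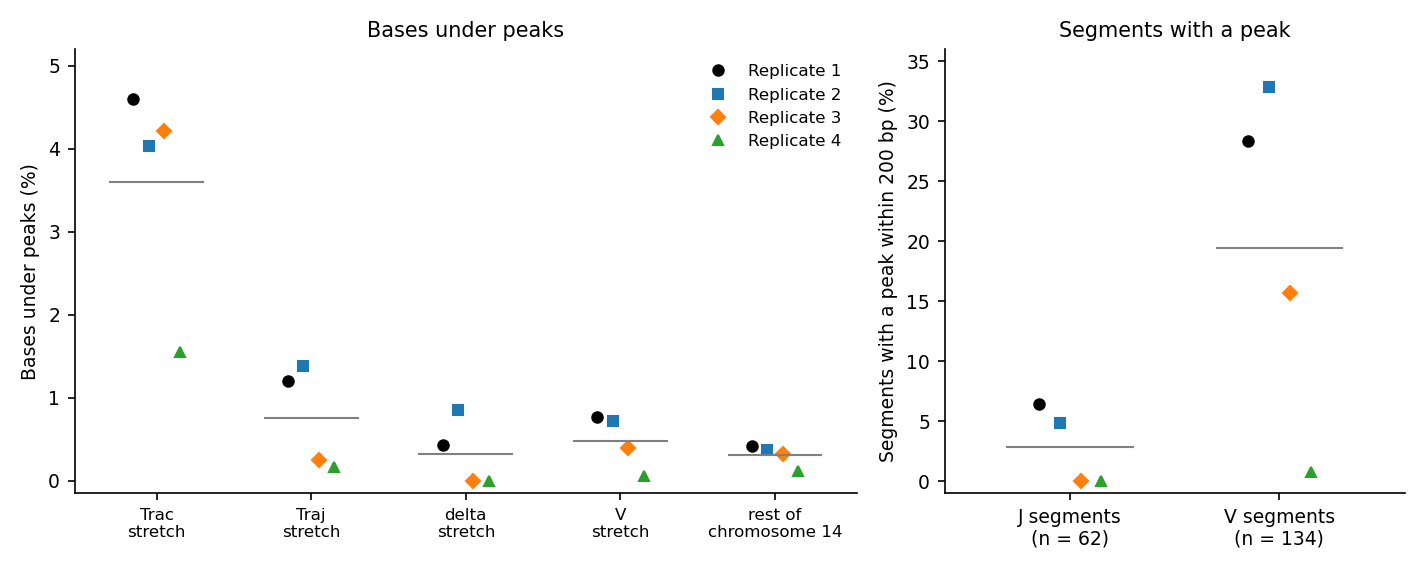
Percentage of bases under peaks (left panel, y axis) in 4 stretches of the locus and in the rest of chromosome 14, and percentage of J and V segments with a peak within 200 bp (right panel, y axis); points are the 4 libraries and lines their means. The Trac stretch lies at 4.61%, 4.04%, 4.21% and 1.55% in replicates 1 to 4, and J segments lie below V segments in each library.

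Uniqueness of the sequence differed between the stretches, and among V windows alone it moved with the calls. A 36-base word occurring at a single place in the genome began at 43.4% of the bases of the V stretch, 86.6% of the delta stretch, 98.5% of the Traj stretch and 97.4% of the Trac stretch. A peak lay at 19, 20, 9 and 1 of the 43 V segments whose window was at least 50% unique, and at 19, 24, 12 and 0 of the 91 others, in replicates 1 to 4. The median unique share was 48.4% for V windows with a consensus site and 3.19% for the 84 V segments called in no library. By copy, segments with the letter d had a consensus site at 4 of 39, those with n at 4 of 34 and those with neither at 13 of 61. The read length is not given in the sources used here, and how tags from repeated sequence or from the wild-derived genome were placed was not tested. J segments had a median unique share of 100%.

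Genes whose products work with the alpha chain were also looked up at their promoters, within 1 kb of any annotated start, and their counts are to be read against the shares of all coding promoters given above (58.8%, 58.9%, 57.2% and 46.5%). The CD3 and zeta chains that carry the receptor to the surface (Cd3d, Cd3e, Cd3g, Cd247) had 4, 4, 4 and 1 of 4 promoters called, and Cd3d was called in all 4 libraries at 2.04, 1.84, 1.47 and 1.12. Rag1 and Rag2, the recombinase, Dntt, which adds bases at the joins, and Ptcra, the partner of the beta chain before alpha joining, had 0 of 4 in every library. Of 12 factors known to act at the alpha enhancer or the locus (Tcf7, Lef1, Runx1, Runx3, Ets1, Creb1, Gata3, Tcf3, Tcf12, Myb, Ctcf, Rad21), 12, 12, 11 and 9 had a promoter peak in replicates 1 to 4, and 11 in at least 3 libraries, where 55.7% of coding promoters did. Ets1 stood at 2.34, 2.61, 2.66 and 2.96 in replicates 1 to 4, Creb1 at 2.42, 2.43, 2.84 and 2.53, and Ctcf at 1.69, 1.38, 2.32 and 2.30. Tcf7 was called in replicates 1 and 2 alone, at 0.349 and 0.301. Several of these factors are made in many cell types, so their promoters do not mark T cells.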

How the data were processed

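DNase-seq of 4 libraries was analysed from peak, footprint and cut-rate lists on mm10 (GRCm38), per the labels. The peak value is a signal: the deposited height, scaled by the authors to library depth, as its whole steps show (109, 62.9, 91.5 and 24.3 M tags). Footprints carry a deposited p-value or q-value of 0.01 on each line, and cut-rate intervals a deposited one below 0.05; both were taken as false discovery rates. The read length, like the aligner and the peak caller, is not given in the sources used here. Without read counts, single sites have no counting interval.

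Peaks of the longer list of each library were merged where they shared at least 1 bp, and a consensus site was called in at least 3 libraries. A library without a peak was given 0. The V stretch ran from the first member to the last V segment before Trdd1, the delta stretch to the end of Trdv5, the Traj stretch to Trac and the Trac stretch to the end of the region. Libraries are the replicates; 6 differences were tested with the exact sign-flip permutation test (16 sign patterns), with no adjustment, since 4 libraries cannot go below 0.13. Genome tiles and all coding promoters gave the background. Uniqueness was counted over all 36-base words of both strands. The genes named were all C and D segments, V or J segments with a consensus site, the first and last Traj and V, the 10 highest sites, the sites of the delta, Traj and Trac stretches, and listed genes; sites and segments called in 1 or 2 libraries, the sites near the Trav16 copies and between Trdv3 and Trdv4, and Olfr1509 were named after their values were seen. The members and lists were chosen with earlier results of these data known. A gene of the B cell list is not reported here. Sequences are of the GRCm38 reference genome. Alternatives were the shorter lists, equal numbers of peaks, other consensus, overlap, window and flank rules, and leaving out libraries. The scripts ran in Python 3.11.15 with numpy 2.4.6 and matplotlib 3.10.9, and the steps were tested on simulated data.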

Additional observations from a re-analysis of the deposited data

How the results depend on the processing

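Of 102 recomputed values, 80 kept their direction or stayed within the limits set for counts, 19 moved and 3 reversed. J segments stayed below V segments, the region above the rest of chromosome 14 and segment sites below other sites under each alternative run, with mean differences between -25.0 and -1.84 points, between 0.0254 and 0.462 points, and between -0.471 and -0.0351. The Traj minus V difference in bases under peaks was -0.00175 points with the shorter peak lists, the footprint difference was -16.8 per Mb inside consensus sites, and the cut-rate difference was -0.0744 points for values below 0.001. The cause was not tested. The 42 consensus sites of the region became 11 with equal numbers of peaks, 10 when all 4 libraries were needed, 74 with at least 2 libraries and 72 with replicates 1 and 2 only. The 21 V segments became 12 with the shorter lists, 2 with equal numbers of peaks, 1 when all 4 were needed, 33 with at least 2 libraries or with replicates 1 and 2, and 9 with no window extension. J segments with a consensus site were 3 with at least 2 libraries or with replicates 1 and 2. Leaving out each replicate, with all 3 others needed, gave 10 to 42 sites, 1 to 21 V segments and 0 J segments: without replicate 1, 2 or 3 the counts were 10 and 1, since replicate 4 was then needed, and without replicate 4 they were 42 and 21. Leaving out each replicate gave -21.9 to -12.8 points for J minus V, 0.139 to 0.407 for Traj minus V coverage, 0.194 to 0.359 for the region, -0.355 to -0.0685 for segment sites, 9.75 to 39.1 footprints per Mb and 0.0662 to 0.276 points of cut-rate bases. The site 3′ of Trac had a mean of 2.54 with the shorter lists, 2.71 with equal numbers of peaks and 9.42 without replicate 4, where the scale is the lower median of sites shared by 3 libraries (alternatives added after seeing the data). No paired analysis was possible because no second group carries the replicate numbers; each difference tested was itself taken within a library. Replicate 4 had the fewest tags (24.3 M) and the fewest peaks (20636), and the part of depth in its missing calls was not tested. None of 26 sets of 4 library values had a library standing apart from the other 3 by Dixon's limit. Of the consensus sites, these sets took in only those called in all 4 libraries. Sites missed by replicate 4 were left out, so the check does not decide whether replicate 4 stands apart at them.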
